A study of Mus musculus with 4 samples.

Results

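The genes described here are the Wnt ligands, their Frizzled receptors and the proteins that assist or block them, as measured by single-cell RNA sequencing (scRNA-seq) in mouse testicular organoids (TOs) and mouse testes. Members were chosen by gene symbol: every gene named Wnt, Fzd, Sfrp, Rspo, Lgr or Dkk followed by a number and at most 1 letter, with Lrp5, Lrp6, Axin2, Wif1 and Znrf3 added, and with Wnt4 and Rspo1 left out. The rule gave 47 of the 32285 genes in the deposited count matrices: 18 ligands, 10 Frizzled receptors, 2 coreceptors, 6 R-spondins and Lgr receptors, 9 secreted antagonists and 2 feedback inhibitors.

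The question was whether the cells of TOs transcribe these genes at the levels of the same cell types in the testis. Both groups had 2 libraries, numbered replicates 1 and 2, and both were described as 28 days old. TOs were made from dissociated testis cells of 6-day-old ICR mice, an outbred strain, which were aggregated in microwells, embedded in basement membrane extract until day 14 and cultured in MEMα with knockout serum replacement, FSH, testosterone and antioxidants. The testis libraries came from 28-day-old mice, with no treatment, transgene or deletion named for them, and their strain was not stated beside the ICR mice of the experiments. A dissociation note in the labels gives day 21 for the organoids, against day 28 elsewhere, and which organoid batch went into which library was not said.

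Wnt proteins are secreted lipid-modified ligands that bind Frizzled receptors. With the coreceptors Lrp5 or Lrp6, this binding stabilizes β-catenin and activates genes through TCF and LEF factors. Another arm acts on the cytoskeleton through planar polarity proteins. R-spondins bind Lgr receptors and remove the ubiquitin ligase Znrf3 from the cell surface, which leaves more Frizzled there, whereas Sfrp proteins and Wif1 bind the ligands and Dkk proteins bind the coreceptors. In the testis, Wnt signals are known to act on germ cell proliferation, on somatic cell identity and on the early choice between testis and ovary.

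Promoters of 4 members whose levels differed between TOs and testes are given here, since β-catenin acts through TCF and LEF factors whose core motif is CTTTG. Each is the RefSeq window of GRCm38.p6 from 250 bases before to 50 bases after an annotated start, written 5′ to 3′ along the gene's strand, with CTTTG and its reverse complement CAAAG in capitals. Fzd10 lies at chr5:128600856-128601155 on the plus strand, Lgr4 at chr2:109917397-109917696 on the plus strand, Wnt2 at chr6:18030396-18030695 on the minus strand, and Wnt5b, at the most upstream of its starts, at chr6:119544298-119544597 on the minus strand.
Fzd10: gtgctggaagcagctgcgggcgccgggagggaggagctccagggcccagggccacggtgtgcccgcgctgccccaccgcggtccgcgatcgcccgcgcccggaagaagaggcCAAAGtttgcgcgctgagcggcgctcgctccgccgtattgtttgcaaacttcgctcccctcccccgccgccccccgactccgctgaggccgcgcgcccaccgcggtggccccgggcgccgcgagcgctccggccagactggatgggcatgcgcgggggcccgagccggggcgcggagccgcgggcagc
Lgr4: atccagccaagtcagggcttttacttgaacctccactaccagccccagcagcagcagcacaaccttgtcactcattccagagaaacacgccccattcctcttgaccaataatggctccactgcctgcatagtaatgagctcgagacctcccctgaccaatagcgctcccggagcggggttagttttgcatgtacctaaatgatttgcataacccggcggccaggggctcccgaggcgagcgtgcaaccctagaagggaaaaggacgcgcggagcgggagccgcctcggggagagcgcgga
Wnt2: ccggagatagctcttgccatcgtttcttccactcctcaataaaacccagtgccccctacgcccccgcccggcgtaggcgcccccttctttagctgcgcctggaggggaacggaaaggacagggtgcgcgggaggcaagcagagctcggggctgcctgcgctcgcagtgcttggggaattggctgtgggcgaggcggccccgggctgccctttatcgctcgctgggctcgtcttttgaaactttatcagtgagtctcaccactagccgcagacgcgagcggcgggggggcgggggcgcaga
Wnt5b: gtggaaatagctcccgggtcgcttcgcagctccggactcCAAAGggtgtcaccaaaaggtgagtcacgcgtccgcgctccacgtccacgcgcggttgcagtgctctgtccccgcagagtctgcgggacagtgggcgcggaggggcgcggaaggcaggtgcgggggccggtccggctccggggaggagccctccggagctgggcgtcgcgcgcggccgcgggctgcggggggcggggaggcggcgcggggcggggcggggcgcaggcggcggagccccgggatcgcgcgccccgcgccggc
The Fzd10 and Wnt5b windows each held 1 match on the reverse strand, and the Lgr4 and Wnt2 windows held none on either strand. In all, 29 members matched the table by symbol, with 32 promoters, and 14 of these (43.8%) held the motif on either strand, against 53.9% of all 32851 promoters of the same length. Of the 12 members called in at least 1 cell type, 5 had an entry. A match of 5 letters is a description of the sequence and not a binding site.

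The files held 14643 and 12491 barcodes of TOs and 12179 and 11826 of testes, and pairs of libraries shared 30 to 55 barcodes. After removal of doublets and of cells outside the limits on genes, UMIs (unique molecular identifiers, each 1 counted RNA molecule) and mitochondrial share, 8713 to 9866 cells per library were kept. Median UMIs per kept cell were 5482 and 7548 in TOs against 2549.5 and 3267 in testes. Cells were clustered without the members and clusters were named from marker lists, so that "Sertoli cells" and the like stand here for Sertoli-like clusters. These names were rebuilt and may differ from those of the study. The 7 types compared had 146 to 3484 cells per library, and endothelial cells were not compared, since the 63 and 80 TO cells in their cluster did not pass the marker check. Spermatid markers summed to between 1298 and 3530.5 CPM (UMIs of a gene scaled to a common total per type and library) in testis Leydig cells, macrophages, peritubular myoid (PTM) cells, stromal cells and testis replicate 1 Sertoli cells, and to no more than 6.46 CPM in the 5 somatic types of TOs. In testis replicate 2 Sertoli cells the spermatid list summed to 18175 CPM.

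Every member had at least 1 UMI in the kept cells. Raw UMIs were summed per library and cell type, and TOs were compared with testes by edgeR's quasi-likelihood test on these sums. A gene was called where the Benjamini-Hochberg adjusted p over all genes compared in the type was below 0.01 and the absolute log2 fold change was above 1. A gene was left out of a type where its pooled CPM in the other cells of either condition reached 5 times the level in the type. Of the 47 members, 34 were compared in at least 1 type, which gave 114 of 329 possible pairs of a member and a type. The other 13 were Dkk1, Dkk4, Lgr5, Wnt1, Wnt3a, Wnt7a, Wnt7b, Wnt8a, Wnt8b, Wnt9b, Wnt10b, Wnt11 and Wnt16. Of these, 9 had fewer than 40 UMIs in all, and Wnt3a had the most with 644.

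Called differences numbered 16 over 12 genes, 13 of them higher and 3 lower in TOs. In Sertoli cells, the supporting cells of the seminiferous tubule, 5 of 19 members compared were higher and 0 lower, against 5.34% higher and 13.6% lower among all genes compared. In Leydig cells, which make androgens, 1 of 19 was higher and 0 lower, against 0.186% and 0.321%. In PTM cells, the contractile layer around the tubules, 2 of 20 were higher and 1 lower, against 3.85% and 17.7%. In stromal cells, 1 of 24 was higher and 1 lower, against 1.83% and 14.0%. In spermatocytes, the meiotic germ cells, 4 of 10 were higher and 1 lower, against 9.07% and 19.6%. These counts depend on the rule on other cells, which can leave out a gene because it was low in the type in a single condition. With no gene left out, Lrp5 in Sertoli cells (log2 -2.97) and Lgr6 in PTM cells (-4.59) were called lower. Wnt5a in Sertoli cells (5.66) and Sfrp2 in Leydig cells (10.2) were called higher.

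No member was called by edgeR in macrophages (0 of 5) or in spermatogonia (0 of 17). There 2 members in each type had an unadjusted p below 0.05, and DESeq2 also called 0 in both. All genes compared were called higher and lower in 2.63% and 12.5% of cases in macrophages, and in 0.218% and 7.95% in spermatogonia. The median log2 fold change of the members compared was 1.25 in Sertoli cells against 0.05 for all genes, 0.89 against 0.13 in Leydig cells, 0.43 against 0.07 in PTM cells and 0.26 against 0.10 in stromal cells. It was 0.75 against 0.10 in macrophages, 0.08 against 0.01 in spermatogonia and 1.12 against 0.03 in spermatocytes. A gene can pass the filter on low counts through a single group. Members with almost no UMIs in testes, as Fzd10 in Sertoli cells and Rspo3 in PTM cells, were compared through their TO counts. The medians and the counts of members called are therefore no test of the members as a set.

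**Figure D1:**
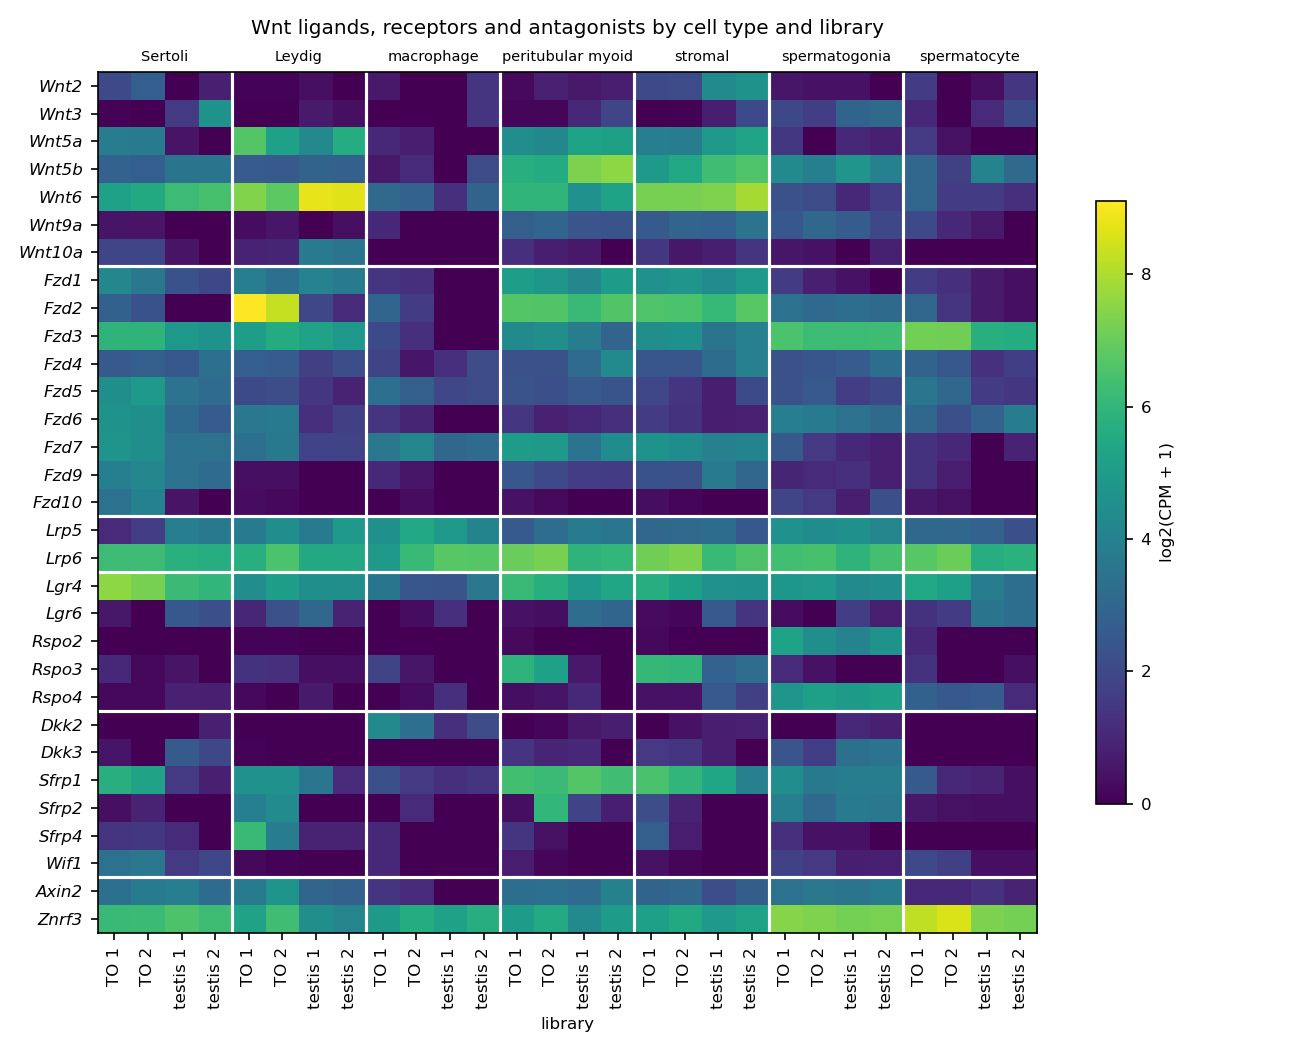
Levels of the members in each cell type and library as log2(CPM + 1), in colour, for members with at least 10 CPM in 1 library of a type, with white lines between roles and between types. Fzd2 in the Leydig columns reads 550.1 and 314 CPM in TOs against 2.84 and 1.17 in testes, and Wnt6 in the same columns reads higher in the testis libraries.

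Among the ligands, the called differences were both lower in TOs and both in mesenchymal cells. Wnt5b (ENSMUSG00000030170, chr6:119432531-119544347, minus strand in GRCm38), a ligand of the β-catenin-independent arm, stood at 51.1 and 48.1 CPM in TO PTM cells and at 158 and 186 CPM in testis PTM cells. The testis libraries were both above the TO libraries by a wide margin. The log2 fold change, TO minus testis, was -1.82 ± 0.22 (SE, n = 2 libraries a group; edgeR adjusted p = 0.000183). PTM cells came from 2 clusters in different shares, cluster 17 holding 4.54% and 6.56% of them in TOs and 30.5% and 33.33% in testes, and Wnt5b was lower in TOs within each. In cluster 1 it read 52.1 and 47.0 CPM in TOs against 127 and 160.4 in testes, and in cluster 17 34.8 and 60.3 against 228 and 243. In stromal cells Wnt5b stood at 29.7 and 42.7 CPM in TOs and 78.5 and 95.5 in testes and was not called (log2 -1.14 ± 0.27; edgeR adjusted p = 0.0221).

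Wnt2 (ENSMUSG00000010797, chr6:17988940-18030585, minus strand), a β-catenin-activating ligand, was the other ligand called. In stromal cells it had 3.03 and 3.31 CPM in TOs and 19.4 and 24.1 in testes, from 44, 81, 28 and 31 UMIs. The groups did not overlap, and the log2 fold change was -2.65 ± 0.37 (edgeR adjusted p = 0.00263). Without testis replicate 1 or without testis replicate 2 this call was lost, with edgeR adjusted p of 0.0135 and 0.0137. The PTM marker list moved with the stromal results, with a sum over its 6 genes of 1760.4 and 536 CPM in TO stromal cells against 145 and 104 in testis stromal cells and 1 defining marker at 0 in testis replicate 2, and its part in them was not tested.

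Wnt6 (ENSMUSG00000033227, chr1:74771892-74785322, plus strand), a ligand known from epithelia and mesenchyme, was higher in testis Leydig cells than in every other testis type, with no overlap of libraries. Leydig cells had 164 and 110.3 CPM in TOs and 437 and 409.6 CPM in testes, with no overlap, and Wnt6 was not called (log2 -1.64 ± 0.29; edgeR adjusted p = 0.0279). In Sertoli cells it had 36.3 and 45.3 CPM in TOs and 74.6 and 87.8 in testes (log2 -0.95 ± 0.23; edgeR adjusted p = 0.0238). In PTM cells the order was the opposite, 61.7 and 61.1 CPM in TOs and 23.6 and 37.5 in testes (log2 0.99 ± 0.27; edgeR adjusted p = 0.0190). In stromal cells the groups came close together, with 152 and 150.03 CPM in TOs and 161 and 236 in testes (log2 -0.27 ± 0.23; edgeR adjusted p = 0.408).

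Other ligands were compared in few types. Wnt10a, another β-catenin-activating ligand, had 0.811 and 0.907 CPM in TO Leydig cells and 12.8 and 10.3 in testis Leydig cells and missed the threshold (log2 -3.74 ± 0.47; edgeR adjusted p = 0.0125). Wnt5a, which acts through Ror receptors, differed between the TO libraries in Leydig cells, at 100.2 and 36.1 CPM against 18.7 and 48.7 in testes, so that the groups overlapped. In stromal cells it had 13.7 and 13.4 CPM in TOs and 28.5 and 38.8 in testes (log2 -1.19 ± 0.26; edgeR adjusted p = 0.0176). Wnt2b, Wnt3 and Wnt9a, compared in stromal cells, spermatogonia and 3 types respectively, were not called, with log2 fold changes from -1.51 to 0.57.

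The Frizzled receptors gave 5 called differences over 4 genes, all higher in TOs. Fzd2 (ENSMUSG00000050288, chr11:102604396-102608058, plus strand) in Leydig cells had the largest fitted fold change of the 16 called differences. It read 550.1 and 314 CPM in TOs, from 7459 and 4158 UMIs, and 2.84 and 1.17 CPM in testes, from 10 and 4 UMIs. The pooled ratio was 215-fold, with a 95% exact interval of 128 to 393 that covers counting error only. The fitted log2 fold change was 7.72 ± 0.55 (edgeR adjusted p = 0.00481), and it was the 1 member called in Leydig cells.

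In the mesenchymal types Fzd2 was measured in both conditions. PTM cells had 99.6 and 97.1 CPM in TOs and 71.9 and 97.6 in testes (log2 0.19 ± 0.23; edgeR adjusted p = 0.539). Stromal cells had 95.9 and 92.0 CPM in TOs and 68.0 and 105 in testes (log2 0.24 ± 0.23; edgeR adjusted p = 0.462). In both types the groups overlapped. In Sertoli cells Fzd2 was left out for its higher level in other cells, and it had 85 and 29 UMIs in TOs and 0 and 0 in testes, at least 6.96-fold higher against the floor of 3 UMIs over the testis group. In a joint fit of Leydig, PTM and stromal cells, chosen after seeing the data because these types had testis UMIs of Fzd2, the TO effect in Leydig cells exceeded the mean of PTM and stromal cells by a log2 difference of 7.60 ± 0.42 (edgeR adjusted p = 5.06e-06).

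The Leydig identity of these cells was read from 5 markers that include the steroid synthesis enzymes Cyp11a1 and Cyp17a1, which summed to 10524 and 3766 CPM in TOs and 12211 and 17348 in testes, with none at 0. The stromal list summed to 361 and 367 CPM in TO Leydig cells and 573 and 259.8 in testis Leydig cells. The PTM list summed to 74.0 and 68.5 CPM in TOs and 43.9 and 14.1 in testes, and the macrophage list to 36.9 and 49.6 against 26.7 and 7.92, and their part in the result was not tested. In cluster 2 alone, which held most Leydig cells, Fzd2 read 556 and 317 CPM in TOs and 2.86 and 1.19 in testes. Counted by cell after thinning each cell to 2000 UMIs, 59.9% (95% exact interval 56.9 to 62.8%) and 39.5% (36.5 to 42.6%) of TO Leydig cells and 0.904% (0.294 to 2.10%) and 0.297% (0.00751 to 1.64%) of testis Leydig cells had a Fzd2 UMI. Unthinned shares were 90.2%, 79.8%, 1.81% and 1.18%, at median depths of 12415, 13436, 6204 and 9826 UMIs. Macrophages, taken as a type with little of the receptor, had thinned shares of 1.19%, 0.599%, 0% and 0%, at median depths of 6326.5, 5998.5, 3073.5 and 4283.5 UMIs. The 2 counts of 0 were among 211 and 134 testis macrophages, which allow shares of up to 1.42% and 2.24%, and the shares of testis Leydig cells lay under these limits.

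In Sertoli cells 3 Frizzled genes were called higher in TOs. Fzd3, a receptor linked to planar polarity, had 60.4 and 60.4 CPM in TOs and 28.2 and 23.8 in testes (log2 1.25 ± 0.18; edgeR adjusted p = 0.00526). Fzd6, of the same branch, had 24.6 and 22.1 CPM in TOs and 7.73 and 5.21 in testes (log2 1.85 ± 0.29; edgeR adjusted p = 0.00623). Fzd10 (ENSMUSG00000081683, chr5:128600844-128604093, plus strand) had 134 and 110 UMIs in TOs, or 9.51 and 14.9 CPM, and 1 and 0 UMIs in testes. Its pooled ratio was 44.7-fold with a 95% exact interval of 7.95 to 1773, and edgeR's adjusted p was 0.00510. In none of these genes did the groups overlap. All 3 calls were lost without TO replicate 1 (edgeR adjusted p from 0.0126 to 0.0515) and without TO replicate 2 (0.0271 to 0.0529). The stromal markers summed to 169 and 114 CPM in TO Sertoli cells and 26.3 and 11.2 in testis Sertoli cells. Rete epithelial markers summed to 254 and 305 CPM in TOs against 35.6 and 45.4 in testes. Spermatid markers had the opposite order, at 3.48 and 5.43 CPM in TO Sertoli cells and 2310 and 18175 in testis Sertoli cells. The part of these lists in these results was not tested. Sertoli markers were at 8009.6 and 8291 CPM in TOs and 4797 and 4262 in testes, with none of the 7 at 0.

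Testis replicate 2 Sertoli cells were few and stood apart, since 64.4% of their 163 cells lay in cluster 31, which held none of the TO cells. Another 50 of its cells lay in cluster 5, the largest Sertoli cluster of the other libraries. Of the Sertoli markers, 3 were found in at least 10% of these 50 cells. They had 0 UMIs of Lgr4, Fzd10, Sfrp1, Fzd3 and Fzd6, so that they lower the testis replicate 2 CPM of the called members with UMIs there. Without these 50 cells, an alternative added after seeing the data, 5 members were called in Sertoli cells, and they were the same 5.

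Other Frizzled genes in Sertoli cells were near the threshold. Fzd1 had 17.6 and 11.4 CPM in TOs and 3.86 and 2.98 in testes (edgeR adjusted p = 0.0117), Fzd5 had 22.3 and 29.6 against 10.0 and 8.18 (0.0133), and Fzd7 had 25.1 and 22.3 against 9.66 and 9.67 (0.0107). Fzd4, Fzd8 and Fzd9 were not called in any type. In spermatocytes Fzd3 had 142 and 139 CPM in TOs and 51.2 and 48.8 in testes (log2 1.43 ± 0.24; edgeR adjusted p = 0.000550). In spermatogonia, the mitotic germ cells, Fzd3 overlapped between the groups at 91.2, 74.0, 74.0 and 76.7 CPM.

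**Figure D2:**
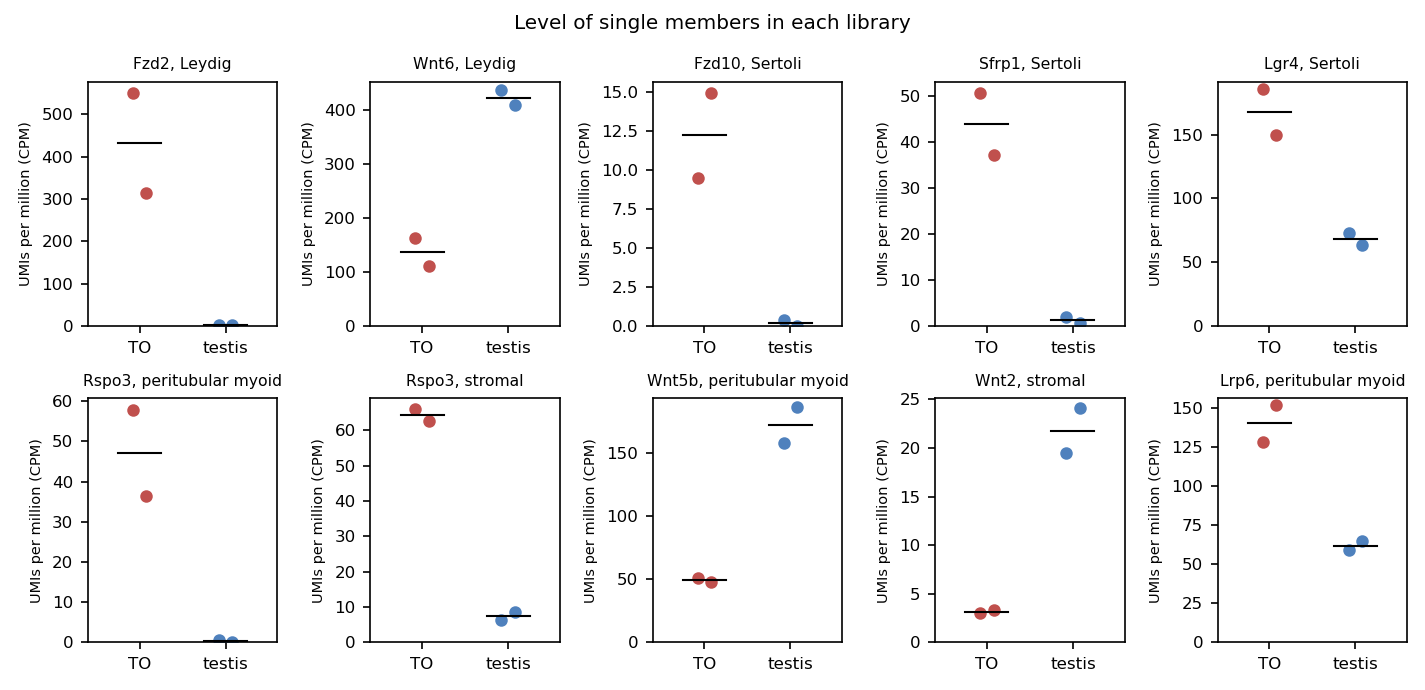
CPM of single members in each library of a cell type, as points (TO and testis, 2 libraries each) with a bar at the mean of each group. Fzd2 in Leydig cells, Fzd10, Sfrp1 and Lgr4 in Sertoli cells, Rspo3 in PTM and stromal cells and Lrp6 in PTM cells are higher in both TO libraries, whereas Wnt6 in Leydig cells, Wnt5b in PTM cells and Wnt2 in stromal cells are higher in both testis libraries.

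Of the coreceptors, which bind Wnt beside Frizzled, Lrp6 (ENSMUSG00000030201, chr6:134446476-134566965, minus strand) was compared in all 7 types and called in 2. In PTM cells it had 128 and 152 CPM in TOs and 59.0 and 64.9 in testes (log2 1.16 ± 0.23; edgeR adjusted p = 0.00380). That call was lost without TO replicate 2, without testis replicate 1 or without testis replicate 2, with edgeR adjusted p of 0.0107, 0.0452 and 0.0420. In spermatocytes it had 105 and 131 CPM in TOs and 50.3 and 55.0 in testes (log2 1.12 ± 0.26; edgeR adjusted p = 0.00443).

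Lrp6 was not called elsewhere. Stromal cells had 141 and 159.6 CPM in TOs and 70.1 and 93.2 in testes (edgeR adjusted p = 0.0179), Sertoli cells 74.2 and 75.2 against 53.7 and 50.6 (0.0428), and Leydig cells 51.9 and 92.0 against 44.5 and 44.6 (0.237). Macrophages, the immune cells of the interstitium, had the opposite order, with 29.1 and 69.8 CPM in TOs and 105 and 104 in testes (log2 -0.84 ± 0.38; edgeR adjusted p = 0.149). Spermatogonia overlapped at 80.0 and 86.0 CPM against 60.2 and 83.9. Lrp5, the second coreceptor, was called in none of the 6 types in which it was compared, with log2 fold changes from -0.80 to 0.75. In Sertoli cells Lrp5 was left out for its higher level in other cells, at 1.14 and 2.17 CPM in TOs and 13.9 and 11.9 in testes.

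Among R-spondins and their Lgr receptors, Rspo3 (ENSMUSG00000019880, chr10:29452416-29535867, minus strand), a secreted amplifier of Wnt signals, was called higher in both mesenchymal types. In PTM cells it had 632 and 428 UMIs in TOs, or 57.9 and 36.5 CPM, and 1 and 0 UMIs in testes. The pooled ratio was 156-fold with a 95% exact interval of 27.9 to 6159.8, and edgeR's adjusted p was 3.29e-05. In stromal cells it had 66.2 and 62.6 CPM in TOs and 6.25 and 8.54 in testes, from 960, 1532, 9 and 11 UMIs. There the log2 fold change was 3.24 ± 0.27 (edgeR adjusted p = 0.000456), and in both types the groups lay far apart.

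Rspo3 was higher in TOs in each PTM cluster, with 55.8 and 38.4 CPM in TOs against 0.774 and 0 in testes in cluster 1, and 89.4 and 14.8 against 0 and 0 in cluster 17. Thinned to 2000 UMIs, 9.39% and 6.83% of TO PTM cells and 0.163% and 0% of testis PTM cells had a Rspo3 UMI, with 95% exact intervals of 8.19 to 10.7%, 5.67 to 8.15%, 0.00413 to 0.906% and 0 to 0.909%. The unthinned shares were 17.6%, 14.3%, 0.145% and 0%, at median depths of 4714, 6671.5, 2634.5 and 3326 UMIs. In stromal cells the thinned shares were 12.1% and 11.4% in TOs and 1.20% and 2.59% in testes. Macrophages had a thinned Rspo3 share of 0.791% in TO replicate 1 and 0% in the other 3 libraries. The stromal markers summed to 4479 and 6393 CPM in TO PTM cells against 2312 and 2455 in testis PTM cells, while the PTM markers themselves summed to 11379.7 and 8054 against 18156 and 18376, with none of the 6 at 0. These lists moved with the PTM results of Rspo3, Lrp6 and Wnt5b, and their part in them was not tested.

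Lgr4 (ENSMUSG00000050199, chr2:109917647-110014257, plus strand), a receptor of R-spondins, was called in Sertoli cells and spermatocytes. Sertoli cells, its highest type in both conditions, had 186 and 149.9 CPM in TOs and 72.7 and 63.2 in testes, without overlap (log2 1.34 ± 0.17; edgeR adjusted p = 0.00321). As for the Frizzled genes of these cells, the call was lost without TO replicate 1 (edgeR adjusted p = 0.0368) and without TO replicate 2 (0.0189). The marker lists given for those Frizzled genes moved with Lgr4 in Sertoli cells as well, and their part was not tested. In spermatocytes Lgr4 had 43.2 and 34.3 CPM in TOs and 13.6 and 8.70 in testes (log2 1.73 ± 0.35; edgeR adjusted p = 0.00186). In PTM cells it had 69.2 and 51.9 CPM in TOs and 29.0 and 39.6 in testes and was not called (edgeR adjusted p = 0.0397).

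Lgr6, a relative of Lgr4, was the 1 member called lower in spermatocytes. It had 3 and 6 UMIs in TOs and 35 and 31 in testes, or 1.51, 2.00, 10.4 and 8.70 CPM (log2 -2.43 ± 0.61; edgeR adjusted p = 0.00686). Rspo2 and Rspo4, further R-spondins, were highest in spermatogonia and were not called there. Rspo2 had 37.6 and 22.3 CPM in TOs and 15.9 and 24.6 in testes, and Rspo4 had 26.6 and 34.0 in TOs and 30.1 and 34.0 in testes, so that both overlapped.

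Of the secreted antagonists, Sfrp1 (ENSMUSG00000031548, chr8:23411502-23449632, plus strand), which binds Wnt ligands, was called in Sertoli cells. It had 715 and 275 UMIs in TOs, or 50.8 and 37.3 CPM, and 5 and 1 UMIs in testes, or 1.93 and 0.744 CPM. The pooled ratio was 30.2-fold with a 95% exact interval of 13.8 to 82.6, and the log2 fold change was 4.91 ± 0.40 (edgeR adjusted p = 0.000961). After thinning, 9.95% and 5.90% of TO Sertoli cells and 0.789% and 0% of testis Sertoli cells had a Sfrp1 UMI, against 0.791%, 0.299%, 0% and 0.746% of macrophages. Unthinned shares in Sertoli cells were 31.3%, 25.9%, 1.06% and 0.613% at median depths of 10055, 11327, 6121 and 9090.0 UMIs. The testis Sertoli shares were thus near those of macrophages. The stromal and rete epithelial markers that were higher in TO Sertoli cells moved with Sfrp1 too. So did the spermatid markers that were higher in testis Sertoli cells, and the part of these lists was not tested. The pooled level of Sfrp1 in other cells of a condition was 4.71 times that in Sertoli cells, just under the limit of 5. Sfrp1 gave no value with clustering at resolution 2, without Harmony or with genes left out from 2 times.

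In stromal cells Sfrp1 was higher in both TO libraries, as in Sertoli cells, but in PTM cells it was not. PTM cells had 81.3 and 73.1 CPM in TOs and 102 and 77.8 in testes, overlapping in range (log2 -0.25 ± 0.22; edgeR adjusted p = 0.415). Stromal cells had 88.3 and 63.3 CPM in TOs and 40.3 and 14.8 in testes (log2 1.53 ± 0.44; edgeR adjusted p = 0.0456).

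Other antagonists were not called, and several differed between the TO libraries. Sfrp4 in Leydig cells had 71.8 and 13.6 CPM in TOs and 0.851 and 0.880 in testes (log2 5.59 ± 1.03; edgeR adjusted p = 0.0315). Sfrp2 in PTM cells had 3 and 754 UMIs in TOs and 5 and 1 in testes, and 746 of the UMIs of TO replicate 2 came from cluster 17, so that a single cluster of a single library set its level. In Leydig cells Sfrp2 was left out for its higher level in other cells. It had 191 and 262 UMIs there in TOs and 0 and 0 in testes, which is at least 39.1-fold higher against a floor of 3 UMIs over the testis group. Wif1, which binds Wnt ligands, had 9.72 and 11.3 CPM in TO Sertoli cells and 1.93 and 2.98 in testis Sertoli cells (edgeR adjusted p = 0.0135), and Dkk2 in macrophages had 18.5 and 9.02 against 1.40 and 3.24 (edgeR adjusted p = 0.0282). Dkk3 and Sfrp5, compared in 3 types and 1 type, were not called.

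The feedback inhibitors Axin2 and Znrf3 are transcribed where β-catenin is active and damp the pathway. Znrf3 (ENSMUSG00000041961, chr11:5276324-5444847, minus strand) was called in spermatocytes, at 302 and 386 CPM in TOs and 158 and 148 in testes (log2 1.13 ± 0.27; edgeR adjusted p = 0.00543). In Leydig cells it had 36.6 and 79.5 CPM in TOs and 21.5 and 16.7 in testes (log2 1.58 ± 0.41; edgeR adjusted p = 0.0751). In spermatogonia it had 175 and 161 CPM in TOs and 148 and 152 in testes, and in Sertoli cells 71.3 and 72.6 against 92.8 and 74.4, and it was called in neither. Axin2 was compared in 5 types and called in none. In Leydig cells it had 12.2 and 25.2 CPM in TOs and 6.80 and 5.86 in testes (log2 1.54 ± 0.45; edgeR adjusted p = 0.102), and in Sertoli cells its groups overlapped.

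The spermatocytes with 5 calls (Fzd3, Lgr4, Lrp6 and Znrf3 higher, Lgr6 lower) differed in make-up between the groups. Cluster 8 held 77.1% and 88.5% of TO spermatocytes against 58.8% and 50.6% of testis spermatocytes, and most other testis spermatocytes lay in clusters 19 and 21. Lgr6 was not called without TO replicate 1, TO replicate 2 or testis replicate 1 (edgeR adjusted p from 0.0206 to 0.0262), Lrp6 without TO replicate 2 (0.0547) and Znrf3 without TO replicate 2 or testis replicate 2 (0.0486 and 0.0326). When the largest cluster of the type in each library, cluster 8, was compared, an alternative added after seeing the data, no member was called by edgeR and 1104 of 10051 genes were. There Lrp6 had a log2 fold change of 0.32 (edgeR adjusted p = 0.459), Znrf3 of 0.41 (0.357), Fzd3 of 0.74 (0.0592) and Lgr4 of 1.37 (0.0277). In cluster 8 Lgr4 read 43.3 and 36.5 CPM in TOs and 16.2 and 14.1 in testes, without overlap. Lgr6 gave no value in that comparison, and it had 1 and 2 UMIs in TOs and 4 and 14 in testes there. In cluster 21 it had 0 and 0 UMIs in TOs, from 14 and 8 cells, and 27 and 17 in testes, from 133 and 196 cells. In cluster 19 it had 1 and 4 UMIs in TOs and 4 and 0 in testes. The spermatogonia markers summed to 1214 and 1233 CPM in TO spermatocytes against 338 and 167 in testis spermatocytes, and their part in these results was not tested. Spermatogonia also differed in make-up, since 74.0% and 76.7% of those of TOs lay in cluster 15, whose 15 and 5 testis cells did not pass the marker check and were left unnamed.

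**Figure D3:**
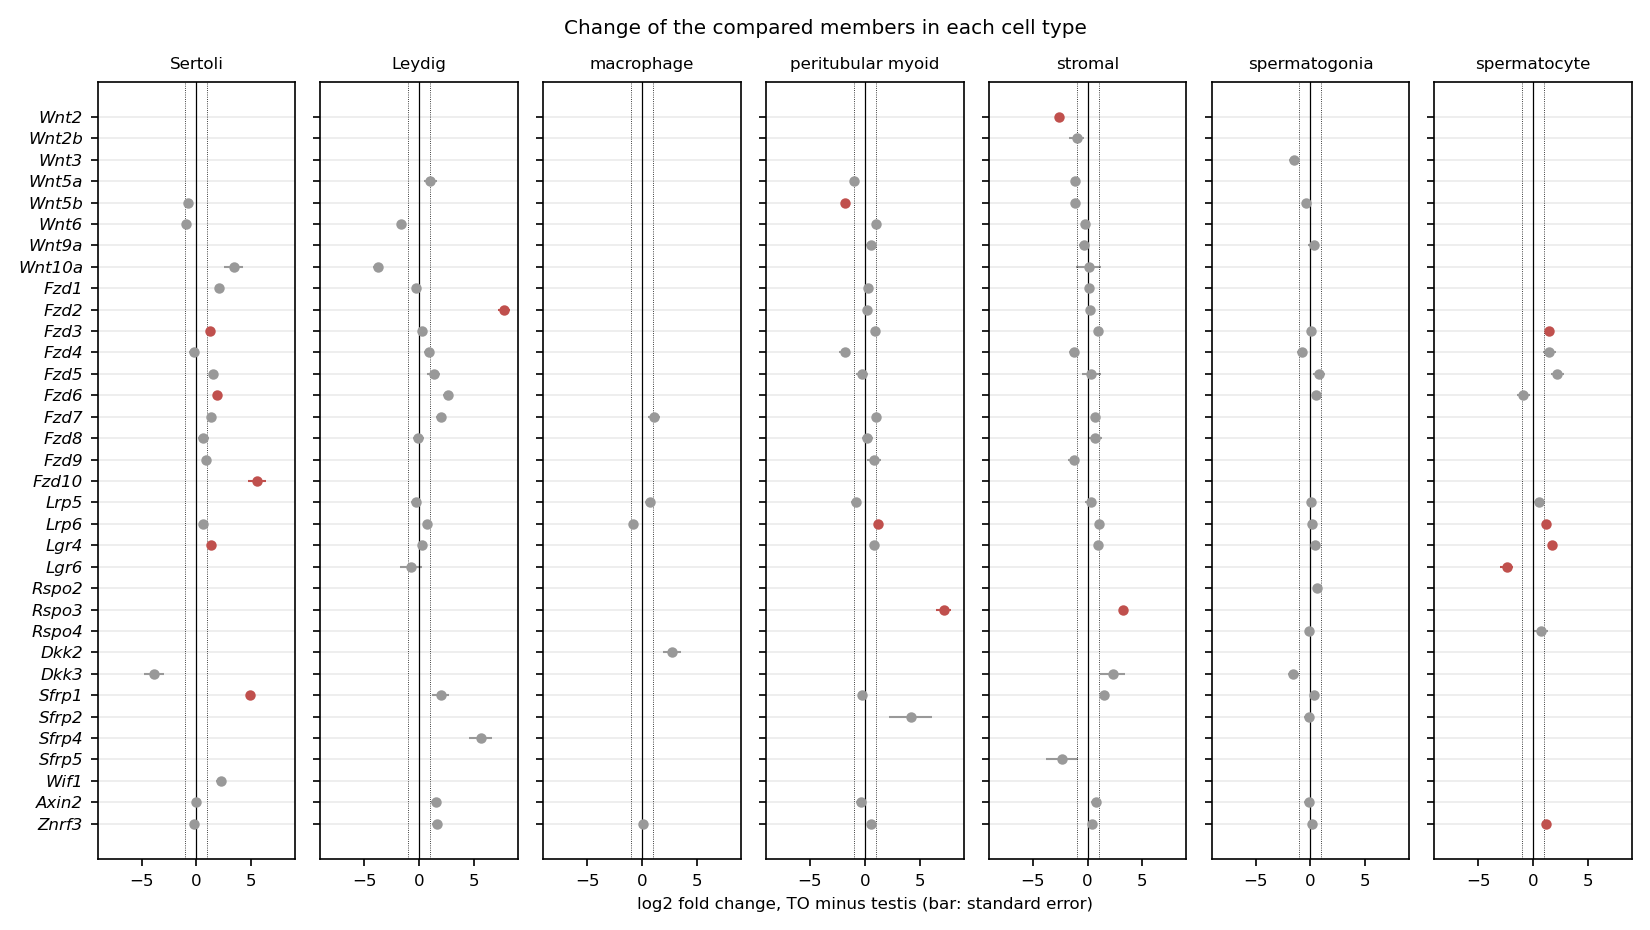
Log2 fold change (TO minus testis) with its SE for every member compared, 1 panel per cell type, in red where called, with dotted lines at -1 and 1. Red points on the right include Fzd2 in Leydig cells at 7.72 and Rspo3 in PTM cells at 7.18, and those on the left are Wnt5b in PTM cells, Wnt2 in stromal cells and Lgr6 in spermatocytes.

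Whether a TO effect differed between cell types was tested in 1 joint fit of the 5 somatic types, as each type's effect against the mean effect of the others. Members were called here at an adjusted p below 0.01, and 8 differences over 6 genes passed. This count stands here without the number of members in the fit, so it is not read against the share of all genes. All genes of the fit passed in 10.3% of cases for Sertoli cells, 6.14% for Leydig cells, 2.96% for macrophages, 4.14% for PTM cells and 1.76% for stromal cells. Wnt6 in Leydig cells was lower than the mean of the other types by a log2 difference of -1.86 ± 0.28 (edgeR adjusted p = 0.000472). Sfrp1 differed by 4.11 ± 0.84 in Sertoli cells (edgeR adjusted p = 0.00288) and by -2.94 ± 0.43 in PTM cells (edgeR adjusted p = 0.000567). The TO effect on Lrp6 was lower in macrophages by -1.47 ± 0.28 (edgeR adjusted p = 0.00404), and that on Znrf3 was higher in Leydig cells by 1.30 ± 0.29 (edgeR adjusted p = 0.00725). Lrp5 differed by -2.80 ± 0.49 in Sertoli cells (edgeR adjusted p = 0.000942), where its own comparison was not made. Fzd2 differed by -5.74 ± 0.73 in PTM cells and -5.69 ± 0.74 in stromal cells (edgeR adjusted p = 0.000343 and 0.000908), values that are no bound because testis Sertoli cells and macrophages had 0 Fzd2 UMIs. The Fzd2 difference of Leydig cells was not called in this fit. The difference of Wnt5b in PTM cells was -1.34 ± 0.35 and was not called (edgeR adjusted p = 0.0244).

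**Figure D4:**
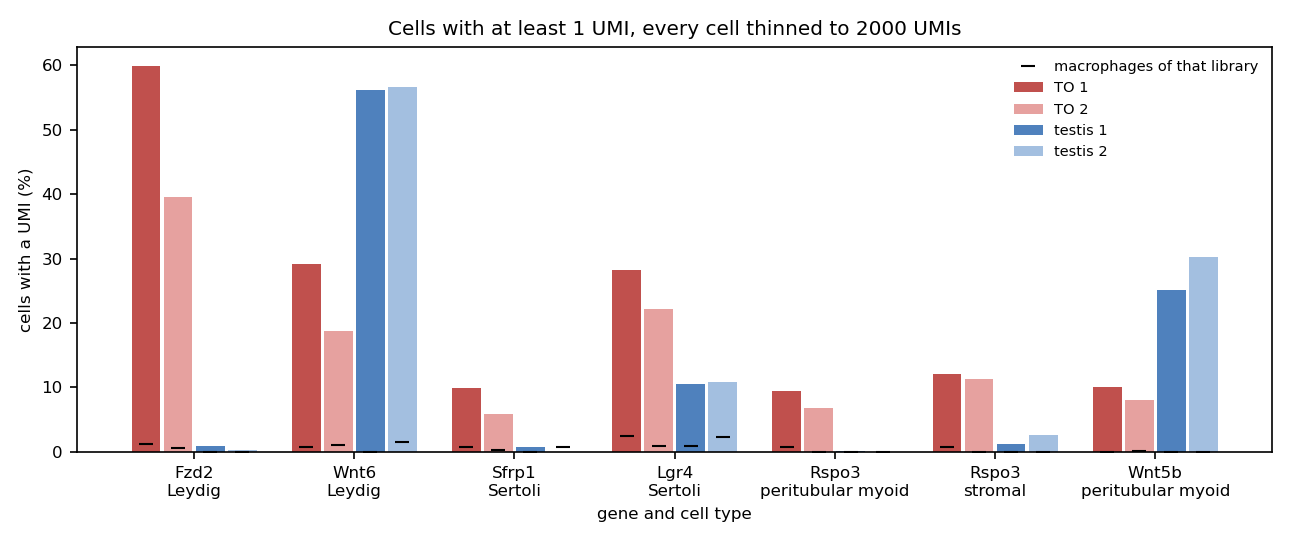
Percent of cells with at least 1 UMI of a member after thinning each cell to 2000 UMIs, as bars per library, with a dash at the share in macrophages of the same library. Fzd2 reads 59.9% and 39.5% in TO Leydig cells against 0.904% and 0.297% in testis Leydig cells, whereas Wnt5b in PTM cells reads 10.0% and 7.97% in TOs against 25.1% and 30.2% in testes.

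A list of 48 other pathway genes was read beside the shares of all genes called. For higher and lower these were 5.34% and 13.6% (Sertoli), 3.85% and 17.7% (PTM), 1.83% and 14.0% (stromal) and 9.07% and 19.6% (spermatocytes). They were 0.186% and 0.321% in Leydig cells, 2.63% and 12.5% in macrophages and 0.218% and 7.95% in spermatogonia. In Sertoli cells 3 of the 31 compared were higher and 2 lower, in Leydig cells 0 of 32 were called, in PTM cells 3 of 39 were lower and 0 higher, and in stromal cells 2 of 39 were higher and 1 lower. In macrophages 1 of 20 and in spermatogonia 1 of 35 were lower, and in spermatocytes 4 of 24 were higher and 1 lower. The 7 genes of the destruction complex and β-catenin were compared in all 7 types, and Apc in spermatocytes was the only call. Porcn, which adds the lipid that Wnt ligands need for release, had 18.3 and 14.9 CPM in TO Sertoli cells and 44.4 and 56.5 in testis Sertoli cells (log2 -1.55; edgeR adjusted p = 0.00588). Frzb, a secreted Wnt antagonist related to Sfrp1, had 287 and 302 CPM in TO Sertoli cells and 68.8 and 81.8 in testis Sertoli cells (log2 2.01; edgeR adjusted p = 0.00142). Ryk, a Wnt receptor outside the Frizzled family, and the polarity gene Daam1 were the other 2 called higher there.

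In stromal cells Daam2 and Gpc4, an intracellular Wnt regulator and a cell surface proteoglycan, were called higher, and in PTM cells Tspan12, a Fzd4 partner, and Nkd1, an inhibitor of the pathway, were called lower. Kremen1, Nkd1, Ryk and Apc were called higher in spermatocytes. Lef1, the β-catenin partner on DNA, was called lower in TOs in 6 of the 7 types, all but Leydig cells, and it had 19.8 and 26.1 CPM in testis spermatids. Since spermatid markers were also higher in the testis somatic cells, the spermatid sums move with the Lef1 difference, and their part in it was not tested.

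A list of 12 β-catenin target genes without the members shared Lef1, Tcf7, Nkd1, Notum, Apcdd1 and Rnf43 with the pathway list. Its counts are therefore not independent of those above, and they stand beside the same shares of all genes called. All its lower calls were those of Lef1, and of Nkd1 in PTM cells, already given. In Sertoli cells 1 of 5 compared was higher and 1 lower. In Leydig cells 1 of 5 was higher, and in stromal cells 1 of 7 was higher and 1 lower. In PTM cells 2 of 7 were lower, in macrophages 1 of 5 and in spermatogonia 1 of 6 were lower, and in spermatocytes 1 of 7 was higher and 1 lower. The call in Leydig cells was Myc, a regulator of growth, with 68.0 and 72.7 CPM in TOs and 7.37 and 6.16 in testes (log2 3.36 ± 0.26; edgeR adjusted p = 0.00523). Myc was also called in stromal cells, and Bambi, a TGF-β pseudoreceptor, was called in Sertoli cells at 61.5 and 83.3 CPM in TOs against 12.8 and 21.6 in testes.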

How the data were processed

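Single-cell suspensions of 2 TO and 2 testis libraries were sequenced on the 10x Genomics platform. The authors deposited raw UMI counts per gene and barcode, made with Cell Ranger 7.1.0 on mm10 per the submitters' processing notes, before doublet removal, filters or normalization. Gene positions are those of GENCODE vM21 (GRCm38, the same assembly as mm10), and promoters are those of RefSeq.

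Doublet scores came from Scrublet (scanpy 1.11.5), by which the top 0.8% per 1000 barcodes of a library were discarded, where the study used DoubletFinder. The limits on cells were 1000 and 5000 genes, an upper bound of 20000 UMIs and a mitochondrial share of no more than 10%. Counts were scaled to 10000 per cell, and 1996 of the 2000 most variable genes, without the members among them, gave 30 principal components, which were aligned over libraries with a Harmony implementation (theta 2, sigma 0.1, lambda 1) and clustered by Leiden (20 neighbours, resolution 1; leidenalg 0.10.2). A cluster was named where at least 3 markers of a type were found in at least 10% of its cells, where no other type had more markers among its 10 leading genes, and where this held in each condition.

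Raw UMIs were summed per library and type, for types with at least 20 cells in each library, and tested in edgeR 4.0.16 (R 4.3.3; TMM, filterByExpr, glmQLFit and glmQLFTest) with condition as the only term, at the study's thresholds on adjusted p and fold. The study's further minimum on the expression difference was not applied. Differences of TO effects between somatic types were tested in a joint fit with library as a block. CPM scale the UMIs of a gene by all UMIs of the type in a library. Exact intervals are at 95%, the floor for a count of 0 was 3 counts, and both cover counting error only. The libraries of a group are numbered 1 and 2 in the labels, and the study describes 2 independent organoid batches and biological replicates of the testis, without the number of animals per library. With 2 libraries a group, p-values rest on a spread between libraries that edgeR estimates in part from all genes of a fit. Summed depth ran from 616639 to 24455752 UMIs per type and library, and low members are the least precise. The scripts were tested on simulated data. Named with values were members called in a type or with at least 50 CPM in both libraries of a condition there, with others added after their values were seen, and pathway genes that were called. The members, the gene lists and the tests were chosen with earlier results of these data known. Alternatives covered thresholds, leave-out ratios, low-count filters, DESeq2 1.42.0, thinned sums, single replicates, the replicate block, doublets, cell limits, naming and clustering. Python 3.11.15 was used with numpy 2.4.6, pandas 2.3.3 and scipy 1.17.1.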

Additional observations from a re-analysis of the deposited data

Results flagged for a closer look

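For 8 differences the TO effect on a member in a cell type departed from the mean TO effect in the other somatic types, by an interaction term in edgeR's joint fit at an adjusted p below 0.01. The log2 differences were 4.11 for Sfrp1 and -2.80 for Lrp5 in Sertoli cells, -1.86 for Wnt6 and 1.30 for Znrf3 in Leydig cells, and -1.47 for Lrp6 in macrophages. In PTM cells they were -2.94 for Sfrp1 and -5.74 for Fzd2, and in stromal cells -5.69 for Fzd2. The Fzd2 values rest on counts of 0 in testis Sertoli cells and macrophages, and in the fit of Leydig, PTM and stromal cells alone they were -3.77 in PTM cells and -3.83 in stromal cells. Lrp6 in macrophages was 29.1 and 69.8 CPM in the TO libraries, so that the TO libraries differed from each other there. Lrp5 had been left out of the comparison within Sertoli cells for its level in other cells.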

How the results depend on the processing

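None of the 16 called log2 fold changes and 8 called differences of TO effects reversed under an alternative that gave a value, and the folds of members not called were not followed across alternatives. Fzd2 in Leydig cells (6.995 to 8.49), Sfrp1 in Sertoli cells (4.32 to 5.83), Wnt5b in PTM cells (-2.004 to -1.57) and Rspo3 in PTM cells (6.37 to 11.56) and stromal cells (2.90 to 3.42) were called under every alternative that gave a value. Values came from 17 alternatives for Fzd2, 16 for Sfrp1, 17 for Wnt5b, and 15 and 18 for Rspo3 in PTM and stromal cells. Fzd2 in Leydig cells gave none with genes left out from 2 times. Lgr6 in spermatocytes was not called under 9 of 17 alternatives, and Znrf3 and Lrp6 there under 5 and 4 of 18.

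Counts of members called moved more, and the share of all genes called is given after each in parentheses. With all libraries and the chosen settings these shares were 18.9% in Sertoli cells, 0.507% in Leydig cells, 15.1% in macrophages, 21.5% in PTM cells, 15.9% in stromal cells, 8.17% in spermatogonia and 28.7% in spermatocytes. At an adjusted p below 0.05 with no minimum fold the counts were 13 in Sertoli cells (39.1%), 6 in Leydig cells (6.84%), 1 in macrophages (21.6%), 7 in PTM cells (34.4%) and 7 in stromal cells (27.4%). With no gene left out they were 9 in Sertoli (24.3%) and 5 in Leydig cells (11.2%), and with genes left out from 2 times 1 (3.56%) and 0 (0.116%). With no filter on low counts they were 10 in Sertoli cells (22.1%), 1 in macrophages (15.7%) and 7 in stromal cells (23.0%), with 14 differences of TO effects. DESeq2 called 5 in Leydig (7.20%) and 4 in stromal cells (20.2%). With doublets kept they were 8 in Sertoli cells (22.6%), 3 in Leydig cells (8.13%), 5 in PTM cells (23.3%) and 2 in spermatocytes (20.9%), and with no upper limit on genes or UMIs 9 in Sertoli cells (20.5%). Naming each cell by its own marker score gave 9 in Sertoli (19.8%) and 2 in Leydig cells (2.38%), and leaving out Harmony 2 in Leydig cells (2.02%), 2 in spermatocytes (22.3%) and no value for PTM cells. Among alternatives chosen after seeing the data, names without the check in each condition gave 2 in Leydig cells (2.59%), and the largest cluster alone gave 2 in Leydig cells (1.58%), 5 in PTM cells (18.4%), 1 in spermatogonia (8.16%) and 0 in spermatocytes (1104 of 10051 genes). Without the library term 4 differences of TO effects were called. Counts of such differences stand here without a share of all genes. The causes were not tested.

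Leaving out 1 library moved the number of members called in several types, and the share of all genes called moved as well. These counts are not set out, since a group then holds a single library. In Sertoli cells Sfrp1 alone kept its call without either TO replicate. Fewer differences of TO effects were called than the 8 with all libraries. Of these 8, Znrf3 in Leydig cells was lost without each of the 4 libraries (edgeR adjusted p from 0.0136 to 0.140), Lrp6 in macrophages without TO replicate 1 or either testis replicate (0.0172 to 0.109), Sfrp1 in Sertoli cells without either TO replicate or testis replicate 1 (0.0141 to 0.0187), Sfrp1 in PTM cells and Lrp5 in Sertoli cells without either TO replicate (0.0121 to 0.0352), Wnt6 in Leydig cells without TO replicate 2 or testis replicate 1 (0.0155 and 0.0220) and Fzd2 in stromal cells without TO replicate 1 or testis replicate 2 (0.0119 and 0.0232). In these fits the lone library of a group is assumed to vary like the others.

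With the replicate number as a block, 10 members were called in Sertoli cells (25.3% of all genes), 1 in macrophages (20.4%), 7 in PTM cells (27.1%) and 6 in stromal cells (22.1%). The block gave 1 in Leydig cells (0.397%), 0 in spermatogonia (10.1%) and 6 in spermatocytes (32.2%). Deviations of same-numbered libraries from their group means correlated between -0.00724 and 0.189 over the 7 types, and with 2 numbers a group they share a number only. Endothelial cells could not be compared. Depth limits the low members: the 9 under 40 UMIs were not compared in any type, except that Wnt10b in stromal cells was called lower with no filter on low counts.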

Other observations

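Fzd2 was also seen in TO cells of cluster 16, a Leydig-like cluster by its markers over all libraries whose TO cells did not pass the marker check and were left unnamed, at 181 and 95.6 CPM from 472 and 362 UMIs. Sfrp2 in PTM cells of cluster 17 was at 788.8 CPM in TO replicate 2 and 1.51 CPM in TO replicate 1, and at 7.001 and 2.17 CPM in the testis libraries. Endothelial cells, which passed the marker check in testes alone, had Fzd4 at 114 and 97.2 CPM, Fzd6 at 146 and 161, Axin2 at 31.9 and 51.9 and Znrf3 at 117 and 93.8, and Fzd4, Fzd6 and Axin2 were at their highest testis level there. In testis spermatids, which were not among the types chosen for comparison, Wnt3 differed between the testis libraries at 6.81 and 53.4 CPM, from 190 and 1753 UMIs, and Wnt3a was at 11.2 and 8.90 CPM.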
